A study of Mus musculus with 7 samples.

Results

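The genes described here are 32 cell cycle and proliferation genes, taken by symbol from the 45777 genes of a table of mouse peripheral blood RNA sequencing. They fall into 25 mitotic genes, which serve chromosome condensation, spindle assembly and division, and 7 replication genes, which copy DNA or supply its nucleotides. The libraries came from peripheral blood mononuclear cells (PBMCs), a fraction that should hold mainly lymphocytes and monocytes, at week 8 of repeated blood collection. Blood had been taken from the tail vein (TV), the facial vein (FV) or the retro-orbital plexus (RP), a bed of vessels behind the eye, each route with ibuprofen, written Ibu (+), and without it, Ibu (-), and a control named Non had no collection route. Ibuprofen is a cyclooxygenase inhibitor, and the title of the series names pain and inflammation as its subject. Each of these 7 groups was a single library, so no group had a replicate, and the labels used here give neither strain, sex, age nor dose, nor say whether animals were pooled. In bulk RNA of mixed cells, fewer cells of a type and less RNA per cell cannot be told apart.

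Cells that divide pass through a phase in which DNA is copied and then through mitosis, and most genes of either phase are transcribed shortly before their products are used. Resting lymphocytes, monocytes and mature neutrophils of blood express most of these genes at low levels. Red cell precursors divide in the marrow while they fill with globin mRNA, lose their nucleus, and enter blood as reticulocytes that still carry RNA from earlier stages. Replication genes are often controlled by E2F factors, while many mitotic genes carry a CHR element (cell cycle genes homology region), bound by the MuvB complex, next to CCAAT boxes bound by NF-Y.

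The start sites of the genes carry these elements to different degrees. RefSeq promoter windows of 300 bases (build GRCm38.p6, the assembly also called mm10), from 250 bases before to 50 bases after the annotated start, were found for 28 of the 32 genes. Aurkb, Ccna2, Kif20a and Tpx2 had no entry. A gene was counted if any of its windows held a match. A CHR element (TTTGAA or TTTAAA, either strand) stood at 19 of 21 mitotic genes (90.5%). The share was 42.9% for replication genes (3 of 7) and 30.6% for 27025 genes. A CCAAT box (CCAAT, either strand) stood at 19 of 21 mitotic genes and 6 of 7 replication genes, against 41.1% of all genes. Both elements together were held by 18 of 21 mitotic genes (85.7%) and 3 of 7 replication genes, against 12.2% of all genes. An E2F-type element was TTTGGCGC, TTTCCCGC, TTTGCCGC or TTTCGCGC, on either strand. It stood at 1 of 21 mitotic genes, Cdk1, and at 3 of 7 replication genes, Mcm3, Mcm5 and Mcm6, against 2.61% of all genes. Matches to these letters describe the sequence and do not show binding, and matches to the E2F-type or CCAAT letters can overlap each other.

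The windows below belong to genes on which the results turn, and their capitals mark every match to the 3 kinds of element on either strand. Ube2c (chr2:164769679-164769978, plus strand) had the highest level of the 32 genes. It holds a CHR element at position -29, counted from the start site. It also holds 6 CCAAT matches, of which those at -186 and -183 overlap on opposite strands. Ccnb2 (chr9:70421505-70421804, minus strand) holds CCAAT boxes at -87, -54 and -21 and CHR elements at -167 and 5. Mki67 (chr7:135716330-135716629, minus strand) holds CHR elements at -116 and -98, counted from the start site of this window. That site lies downstream of the annotated upstream end of the gene, 135716450. Counted from that end, both elements would lie nearer. Cdk1 (chr10:69352863-69353162, minus strand) had the lowest level and holds all 3 kinds. Mcm6 (chr1:128359656-128359955, minus strand) is the replication gene with most E2F-type matches, 3, of which those at -110 and -106 overlap, and holds no CHR element.
Ube2c: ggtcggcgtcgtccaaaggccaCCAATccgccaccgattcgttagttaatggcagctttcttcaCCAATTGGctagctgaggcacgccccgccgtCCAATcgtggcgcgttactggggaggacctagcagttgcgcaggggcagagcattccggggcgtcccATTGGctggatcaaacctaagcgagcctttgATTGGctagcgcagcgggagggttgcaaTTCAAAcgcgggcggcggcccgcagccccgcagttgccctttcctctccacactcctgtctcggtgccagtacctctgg
Ccnb2: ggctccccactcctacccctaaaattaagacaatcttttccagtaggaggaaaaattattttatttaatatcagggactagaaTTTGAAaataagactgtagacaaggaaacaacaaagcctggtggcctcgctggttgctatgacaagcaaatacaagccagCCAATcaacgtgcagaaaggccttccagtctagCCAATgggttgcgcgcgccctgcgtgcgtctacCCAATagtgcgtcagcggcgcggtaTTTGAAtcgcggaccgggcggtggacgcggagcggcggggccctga
Mki67: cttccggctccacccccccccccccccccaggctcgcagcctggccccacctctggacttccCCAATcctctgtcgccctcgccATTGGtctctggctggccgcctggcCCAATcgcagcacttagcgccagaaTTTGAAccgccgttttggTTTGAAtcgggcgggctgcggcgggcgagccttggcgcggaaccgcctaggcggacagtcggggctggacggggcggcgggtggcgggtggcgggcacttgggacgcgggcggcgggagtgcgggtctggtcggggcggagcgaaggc
Cdk1: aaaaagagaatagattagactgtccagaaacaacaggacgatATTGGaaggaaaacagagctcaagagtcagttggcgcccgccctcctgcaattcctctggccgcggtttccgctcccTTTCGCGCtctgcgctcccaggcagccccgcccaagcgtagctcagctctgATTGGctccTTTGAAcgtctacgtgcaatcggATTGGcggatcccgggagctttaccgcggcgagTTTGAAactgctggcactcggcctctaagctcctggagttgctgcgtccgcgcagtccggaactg
Mcm6: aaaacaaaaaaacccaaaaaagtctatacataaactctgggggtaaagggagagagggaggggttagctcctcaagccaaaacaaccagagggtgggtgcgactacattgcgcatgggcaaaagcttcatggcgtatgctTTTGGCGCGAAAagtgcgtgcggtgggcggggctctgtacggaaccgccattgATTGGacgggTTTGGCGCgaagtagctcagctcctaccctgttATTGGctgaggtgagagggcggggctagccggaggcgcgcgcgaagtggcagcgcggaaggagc
Ube2c and Cdk1 thus share CHR elements and CCAAT boxes while their levels stood at opposite ends of the 32 genes. The windows of Nusap1 and Tyms hold none of the 3 kinds.

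Total counts ranged from 47903611 in FV Ibu (-) to 63801032 in RP Ibu (-). Adult globin mRNA from red cells took 64.6% of counts in TV Ibu (+), 70.9% in TV Ibu (-), 46.3% in FV Ibu (+), 53.4% in FV Ibu (-), 62.4% in RP Ibu (+), 54.0% in RP Ibu (-) and 58.4% in Non. Because that share presses on every other gene, TMM scaling, a trimmed mean over genes, was applied and values are given as CPM, counts per 1000000 of the scaled library, with factors from 0.553 in TV Ibu (-) to 1.31 in FV Ibu (+). At 1 CPM a library held 32.7 to 78.4 counts. Markers of the other lists were present in every library, including those of cells outside the mononuclear fraction. The summed level of 20 young erythroid genes was 5258 CPM in TV Ibu (+), 8128 in TV Ibu (-), 2373 in FV Ibu (+), 2777 in FV Ibu (-), 4149 in RP Ibu (+), 3313 in RP Ibu (-) and 3653 in Non. Of these 20 genes, Sphk1 alone was at 0 in some libraries. Mature neutrophil markers (11 genes) summed to 196 CPM in TV Ibu (+), 505 in TV Ibu (-), 463 in FV Ibu (+), 1161 in FV Ibu (-), 355 in RP Ibu (+), 305 in RP Ibu (-) and 247 in Non, with none at 0. B cell markers (12 genes) spanned 599 to 1809 CPM and T cell markers (12 genes) 342 to 868 CPM.

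On the length-scaled TPM values deposited by the authors, most of the 32 genes were scarce. Ube2c, the ubiquitin-conjugating enzyme of the anaphase-promoting complex (gene ID 68612; chromosome 2, 164769929 to 164772902), had 101 TPM in TV Ibu (+), 101 in TV Ibu (-), 76.2 in FV Ibu (+), 92.1 in FV Ibu (-), 101 in RP Ibu (+), 96.1 in RP Ibu (-) and 90.2 in Non. Pcna, the sliding clamp of DNA polymerases (gene ID 18538; chromosome 2, 132249286 to 132253180), followed with 10.4 and 6.34 TPM in TV Ibu (+) and TV Ibu (-), 24.7 and 17.4 in FV Ibu (+) and FV Ibu (-), 13.1 and 19.0 in RP Ibu (+) and RP Ibu (-), and 15.7 in Non. Ube2c was above Pcna in all 7 libraries, and both were above the other 30 genes. Nusap1, a spindle microtubule protein, had a median of 6.07 TPM, the proliferation antigen Mki67 5.46, and the replicative helicase subunit Mcm6 4.31. Then came Ccnb2 (cyclin B2) at 3.39 TPM, the centromeric histone Cenpa at 3.35, and Mcm3, Mcm5 and Mcm2 at 2.93, 2.89 and 2.77. Ccna2 (cyclin A2) stood at 2.78 TPM.

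By deposited TPM, the core mitotic kinase and many partners were low. By counts they were not all scarce, with 115 to 252 in a library for Top2a, 59 to 166 for Cenpf and 22 to 45 for Plk1. Cdk1, the kinase that cyclins A and B activate, had a median of 0.0432 TPM and 9 to 34 counts in a library. The checkpoint kinase Bub1 had 11, 25, 44, 27, 16 and 14 counts in TV Ibu (+), TV Ibu (-), FV Ibu (+), FV Ibu (-), RP Ibu (-) and Non, and 0 counts in RP Ibu (+), where the floor of 3 counts stands at 0.0589 CPM and the exact Poisson 95% upper limit at 0.0724 CPM. By CPM, Bub1 had 0 and 0.204 in RP Ibu (+) and RP Ibu (-), below the other 5 libraries at 0.242 to 0.764. Medians were 0.523 TPM or lower for Top2a (DNA topoisomerase II alpha), the kinases Aurka and Plk1, the spindle midzone protein Prc1, Ccnb1 (cyclin B1), the kinesins Cenpe, Kif11 and Kif20a, the checkpoint kinase Bub1b and the kinetochore protein Cenpf. Between these extremes lay Birc5 (survivin) and Cdca3, Kif23, Tpx2, Cdc20, Aurkb and Cdca8, at medians of 0.531 to 1.72 TPM. Among replication genes, Tyms (thymidylate synthase) and Rrm2 (the ribonucleotide reductase small subunit) stood at 0.370 and 0.311 TPM.

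**Figure D1:**
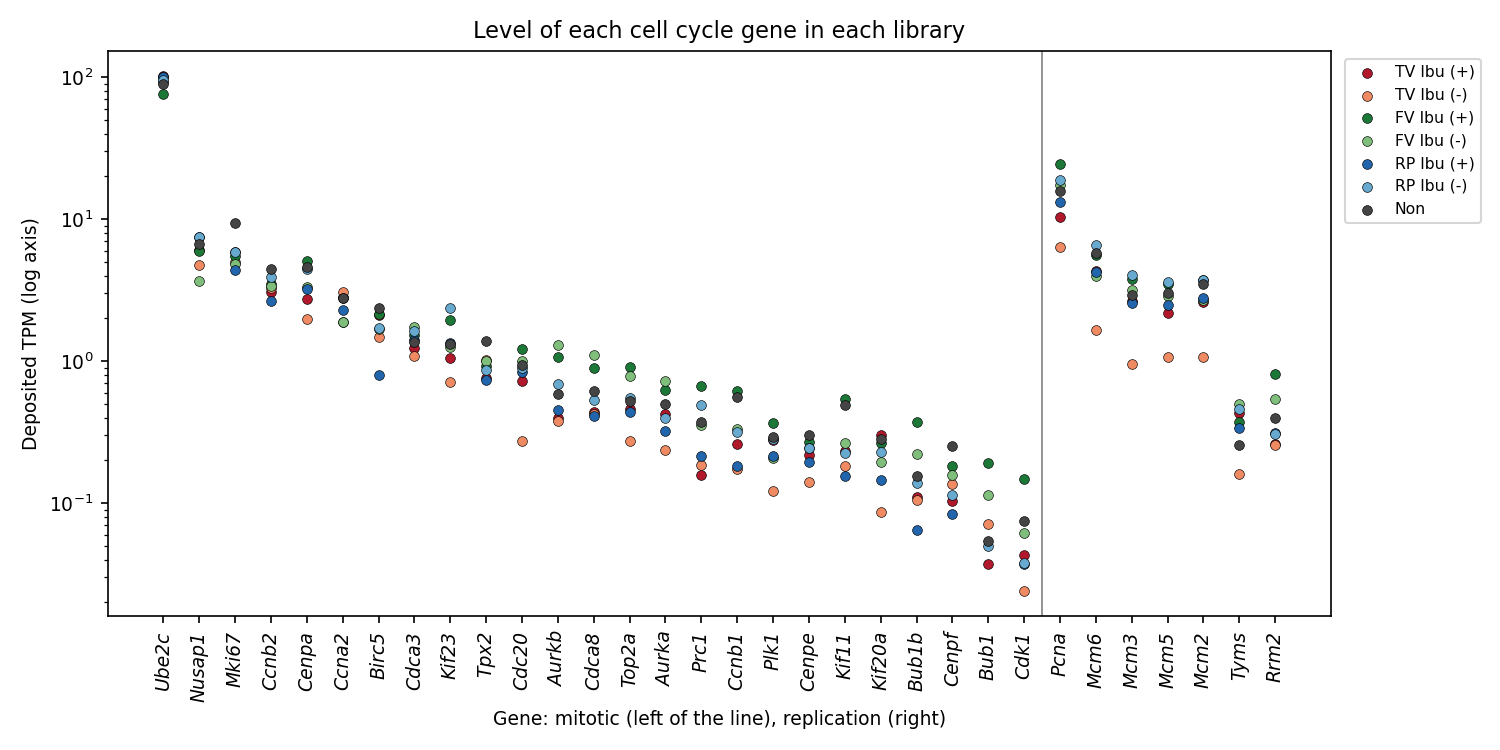
Deposited TPM (log axis) of the 25 mitotic and 7 replication genes, with 1 point for each of the 7 libraries and genes ordered by median within each role. Ube2c lies at 76.2 to 101 TPM and Cdk1 at the low end with a median of 0.0432; Bub1 at 0 in RP Ibu (+) cannot be drawn on this axis.

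By CPM, a pair of genes carried the mitotic total. Ube2c and Mki67 together made 71.8% of the summed mitotic CPM in TV Ibu (+), 73.6% in TV Ibu (-), 61.4% in FV Ibu (+), 68.9% in FV Ibu (-), 69.8% in RP Ibu (+), 65.7% in RP Ibu (-) and 70.0% in Non. The mitotic sum was 311 CPM in TV Ibu (+), 472 in TV Ibu (-), 163 in FV Ibu (+), 188 in FV Ibu (-), 245 in RP Ibu (+), 204 in RP Ibu (-) and 267 in Non. It was thus highest in the TV libraries and lowest in the FV libraries. The replication sum was 78.9 CPM in TV Ibu (+), 59.6 in TV Ibu (-), 69.9 in FV Ibu (+), 65.1 in FV Ibu (-), 72.3 in RP Ibu (+), 77.8 in RP Ibu (-) and 75.6 in Non, with TV Ibu (-) lowest. For the tests, 26 of the 32 genes reached a mean of 1 CPM, 19 of 25 mitotic and 7 of 7 replication genes. Ccnb1, Plk1, Kif20a, Bub1b, Bub1 and Cdk1 did not.

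Several mitotic genes had higher CPM in the TV libraries than in the RP and FV libraries, while no replication gene had both TV libraries above the RP and FV libraries. Ube2c had 139 CPM in TV Ibu (+) and 228 in TV Ibu (-), against 56.9 and 83.3 in FV Ibu (+) and FV Ibu (-), 117 and 81.9 in RP Ibu (+) and RP Ibu (-), and 88.8 in Non. Its exact Poisson 95% interval in TV Ibu (-), 223 to 233 CPM, shows that counting error was small beside these differences, and such intervals cover counting error only. Ccna2, the cyclin that acts from DNA copying into early mitosis (gene ID 12428; chromosome 3, 36564865 to 36573038), had 14.0 and 25.2 CPM in TV Ibu (+) and TV Ibu (-), against 5.10 and 6.16 in the FV libraries with and without ibuprofen, 9.62 and 8.61 in the RP libraries in the same order, and 9.97 in Non. Both genes had both TV libraries above the other 5. Mki67 (gene ID 17345; chromosome 7, 135689784 to 135716450) had 84.7 and 119 CPM in TV Ibu (+) and TV Ibu (-), against 43.3 and 46.4 in FV Ibu (+) and FV Ibu (-), 54.1 and 51.7 in RP Ibu (+) and RP Ibu (-), and 98.1 in Non. Here the TV libraries were above FV and RP, and Non lay between the TV libraries.

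Ccnb2 had 6.95 and 12.3 CPM in TV Ibu (+) and TV Ibu (-), against 4.35 and 5.09 in FV Ibu (+) and FV Ibu (-), 5.10 and 5.51 in RP Ibu (+) and RP Ibu (-), and 7.24 in Non. Tpx2, the spindle factor that activates Aurora A, had 4.71 and 8.89 CPM in TV Ibu (+) and TV Ibu (-), against 3.12 and 3.07 in FV Ibu (+) and FV Ibu (-), 2.81 and 3.34 in RP Ibu (+) and RP Ibu (-), and 5.45 in Non. For both, Non again lay between the TV libraries and above FV and RP. Birc5, a subunit of the chromosomal passenger complex, had 3.30 and 3.67 CPM in TV Ibu (+) and TV Ibu (-), against 1.94 and 1.70 in FV Ibu (+) and FV Ibu (-), 1.24 and 1.67 in RP Ibu (+) and RP Ibu (-), and 2.66 in Non. Cdca3, a mitotic entry factor, and Cenpe, a kinetochore kinesin, also had both TV libraries above the 4 FV and RP libraries. Of the genes at 1 CPM or more this was so for 8 of 19 mitotic and 0 of 7 replication genes, against 5.12% of 11804 genes. Kif20a and Plk1, below 1 CPM, showed the same order.

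No gene passed the test for TV against either other route. With edgeR's quasi-likelihood test over the 6 collected libraries and Benjamini-Hochberg adjustment over 11774 genes, 0 of 26 cell cycle genes passed an adjusted p of 0.05 for TV against RP, and 0 of all genes (0%). At an unadjusted p under 0.05, 8 of 26 were higher in TV, against 9.05% of all genes, and 0 were lower, against 4.02%. These were Birc5 at a log2 fold of 1.26 (standard error 0.29), Cenpf at 1.14 (0.38), Tpx2 at 1.10 (0.28), Ccna2 at 1.05 (0.26), the spindle motor Kif11 at 0.97 (0.38), Mki67 at 0.93 (0.20), Ube2c at 0.83 (0.32) and Ccnb2 at 0.82 (0.24), each with an adjusted p of 0.379. DESeq2 called Mki67 alone of the 26, and 189 of 11774 genes, and limma-voom called 0 of either. Without FV Ibu (-) or without FV Ibu (+), edgeR called 4 genes, Birc5, Ccna2, Mki67 and Tpx2, with adjusted p of at least 0.0172 and 0.0205, where 465 of 11694 and 457 of 11638 genes were called in all. Without TV Ibu (-) the number at an unadjusted p under 0.05 was 3, and without RP Ibu (-) it was 2. With the main libraries, the median log2 fold was 0.62 over 19 mitotic genes (16 above 0) and -0.14 over 7 replication genes (2 above 0), against -0.04 over all genes.

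TV against FV shares the TV libraries with the comparison above, and its values stand beside those for RP. Again 0 of 26 passed with edgeR's quasi-likelihood test (0% of all genes), and 7 were higher at an unadjusted p under 0.05, against 4.66% of all genes, with 0 lower, against 6.1%. Ccna2 stood at a log2 fold of 1.77 (standard error 0.26), Ube2c at 1.38 (0.32), Nusap1 at 1.28 (0.25), Mki67 at 1.17 (0.20), Tpx2 at 1.07 (0.28), Ccnb2 at 0.99 (0.24) and Birc5 at 0.93 (0.29), with adjusted p of 0.248 to 0.336. DESeq2 called 5 of the 26, Ccna2, Ube2c, Mki67, Nusap1 and Ccnb2, and 318 of 11774 genes, and limma-voom called 0 of the 26 and 7 of all genes. Without FV Ibu (-) edgeR called Ccna2, and without FV Ibu (+) it called Ccna2 and Nusap1, where 89 of 11694 and 110 of 11638 genes were called in all. The median log2 fold was 0.54 over 19 mitotic genes (14 above 0) and 0.07 over 7 replication genes (5 above 0), against -0.07 over all genes. Nusap1 had 25.0 and 33.9 CPM in TV Ibu (+) and TV Ibu (-), against 14.0 and 10.4 in FV Ibu (+) and FV Ibu (-), 26.5 and 20.2 in RP Ibu (+) and RP Ibu (-), and 19.6 in Non. FV was thus below the other 5 libraries, while RP Ibu (+) lay between the TV values.

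**Figure D2:**
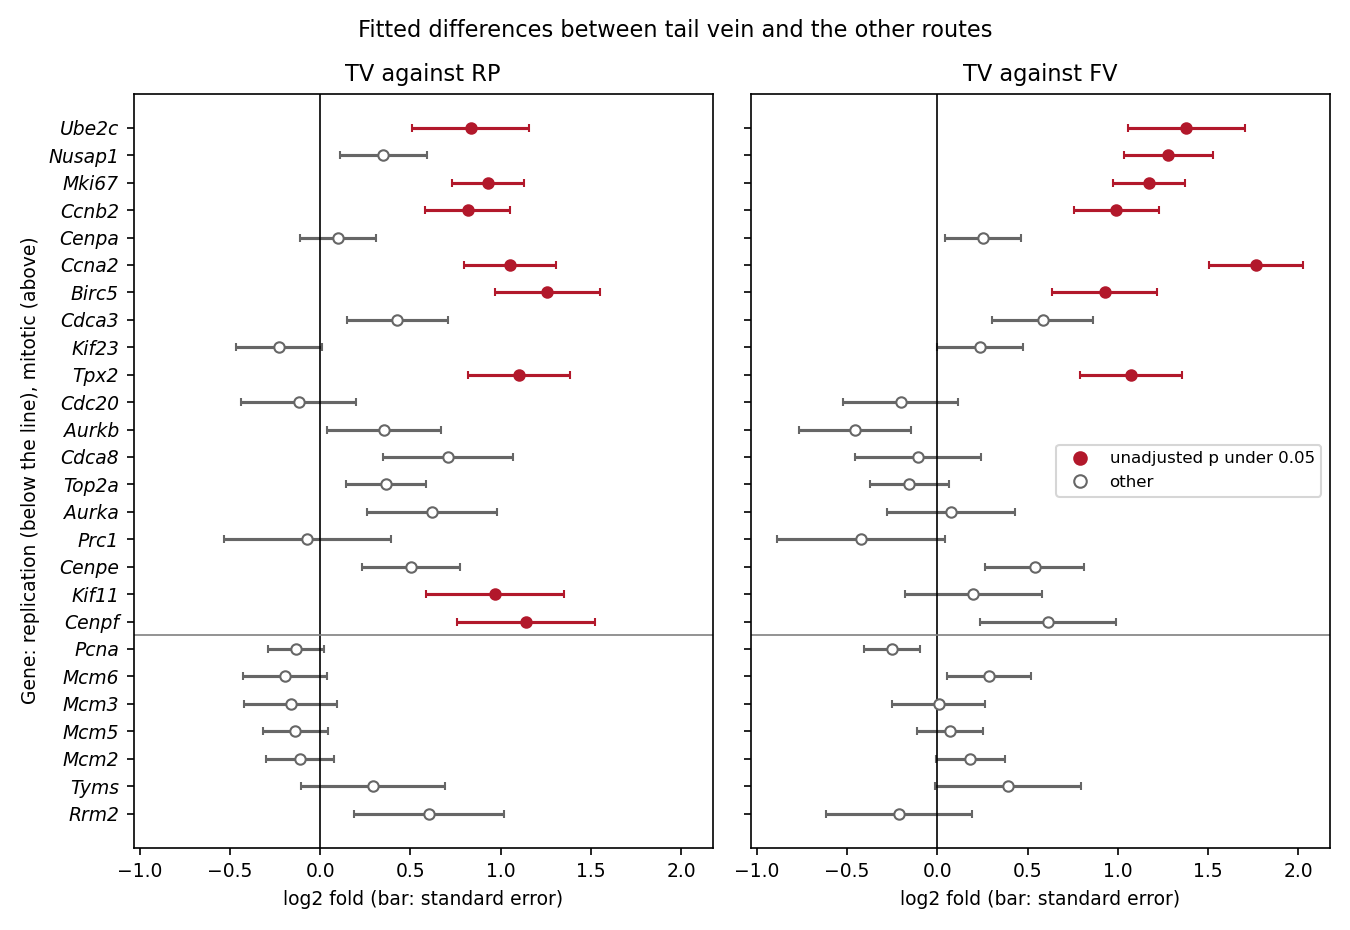
Fitted log2 folds of the 26 tested genes for TV against RP (left) and TV against FV (right), with bars for 1 standard error and filled points for an unadjusted p under 0.05. Filled points lie between 0.82 and 1.77 and are all mitotic genes; none passed an adjusted p of 0.05.

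Young erythroid transcripts were high in the same libraries. In the fit, 19 of 19 tested young erythroid genes had a log2 fold above 0 for TV against RP (12 at an unadjusted p under 0.05, median 0.89) and 19 of 19 for TV against FV (12, median 1.19), with 0 passing the adjusted test. Platelet markers (15 genes) were also above 0 in 15 of 15 for TV against RP (median 1.38) but in 2 of 15 for TV against FV (median -0.23). Stem and progenitor genes were above 0 in 7 of 9 for TV against RP (median 0.82) and 3 of 9 for TV against FV, and monocyte genes in 10 of 11 (median 0.83) and 1 of 11. B cell markers were below 0 in 12 of 12 for TV against RP (median -0.62, 8 at an unadjusted p under 0.05) and above 0 in 12 of 12 for TV against FV (median 0.69), and T cell markers were below 0 in 12 of 12 and 7 of 12. Their part in the mitotic values was not tested. With the erythroid and globin genes left out before scaling, 30 cell cycle genes reached 1 CPM. Of these, 8 were at an unadjusted p under 0.05 for TV against RP and 7 for TV against FV. The share of all genes under this setting is not given here. Leaving those genes out changes the scale and not the counts of mitotic genes, so it does not test the part of erythroid RNA.

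The direction of the route values depended on the scale. Against all genes the median log2 difference of TV from RP was -0.04 by CPM, -0.81 by deposited TPM and -0.94 per adult globin count, and for TV from FV it was -0.07, -1.11 and -1.36. Mitotic medians, as differences of route means without a test, were 0.59, -0.13 and -0.29 for TV from RP on these 3 scales and 0.53, -0.45 and -0.75 for TV from FV, above the all-gene median on each scale. Replication medians were -0.13, -0.92 and -1.04 for TV from RP and 0.06, -1.0 and -1.23 for TV from FV, close to the all-gene median on each scale. Ube2c differed between TV and RP by 0.86 by CPM, 0.04 by TPM and -0.04 per globin count, and Ccna2 by 1.04, 0.21 and 0.14.

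Set against adult globin counts, a scale chosen after the values were seen, Ube2c was nearly flat. Per 1000000 globin counts it had 185 and 178 counts in TV Ibu (+) and TV Ibu (-), 162 and 183 in FV Ibu (+) and FV Ibu (-), 186 and 186 in RP Ibu (+) and RP Ibu (-), and 171 in Non. The highest library was 1.15 times the lowest, against 4.01 times by CPM. Among 11779 genes detected in every library, globins left out, 2 had a narrower range on this scale, the polyubiquitin gene Ubb and the predicted gene Gm1821. The sum of young erythroid genes, of which 2 genes made 83.1% to 88.3% in each library, spanned 1.24 times on this scale and 3.43 times by CPM. Ccna2 spanned 1.46 times per globin count and 4.95 times by CPM, Ccnb2 1.71 and 2.84, Cdca3 1.80 and 2.03, Nusap1 2.01 and 3.24, and Mki67 2.18 and 2.76. In all, 9 of 19 mitotic genes had a narrower range per globin count than by CPM, against 4.23% of those 11779 genes. Among replication genes 0 of 7 did. Mcm6 spanned 4.60 times per globin count and 1.63 by CPM, Pcna 4.68 and 1.29, and Top2a 4.00 and 1.52. Such ratios describe these 7 libraries and were not tested.

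**Figure D3:**
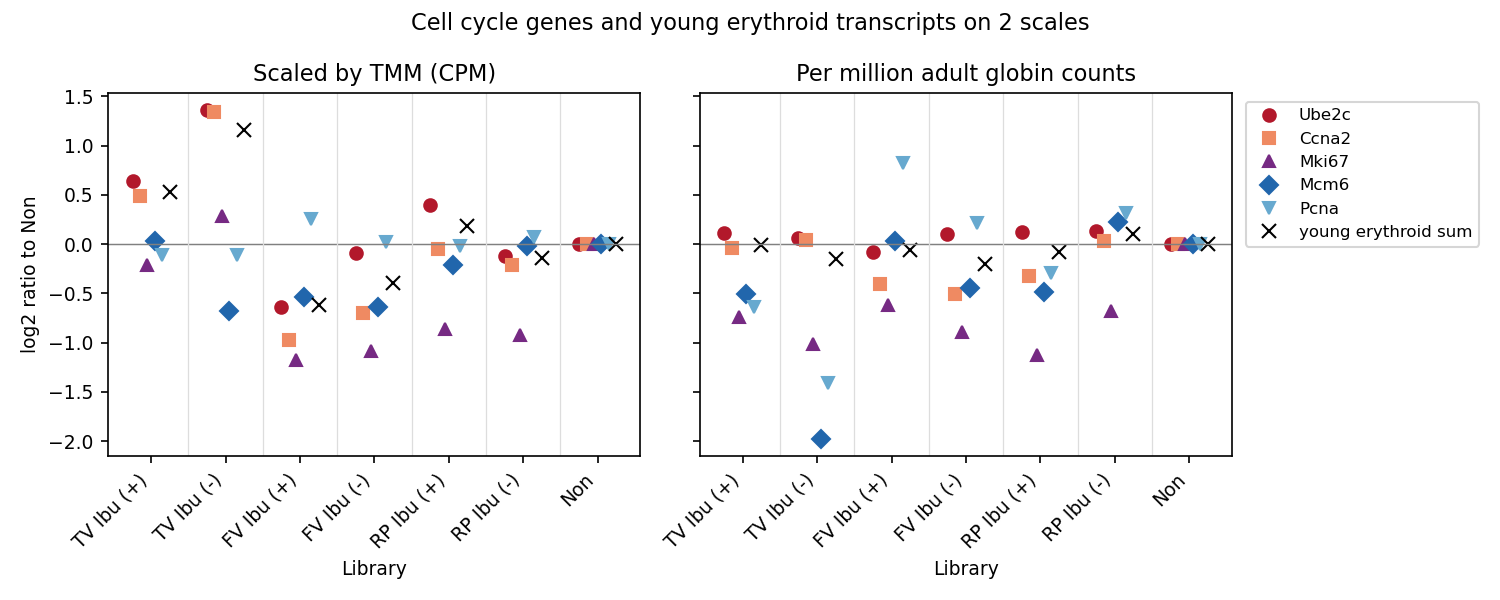
Log2 ratio to Non of Ube2c, Ccna2, Mki67, Mcm6, Pcna and the summed young erythroid genes in each library, scaled by TMM (left) and per adult globin count (right). By CPM, Ube2c and the young erythroid sum are highest in TV Ibu (-) and lowest in FV Ibu (+); per globin count both lie near 0, and Mcm6 and Pcna are lowest in TV Ibu (-).

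Against Non, each collected library was compared without a test, and genes that differed by 2-fold or more were counted (a prior count of 2 was added before the log2). In TV Ibu (-), Ube2c stood at a log2 difference of 1.36 and Ccna2 at 1.33, and these 2 of 26 genes were at least 2-fold higher, against 8.63% of 11804 genes, with 0 lower, against 3.73%. Its mitotic median was 0.38 (16 of 19 above 0) and its replication median -0.28 (2 of 7 above 0), against -0.06 over all genes. On deposited TPM the all-gene median of this pair was -1.17, the mitotic median -0.63 and the replication median -1.41, and Ube2c and Ccna2 stood at 0.16 and 0.13. In this library 19 of 19 young erythroid genes were above Non (median 1.15) and 12 of 12 T cell markers below it (median -1.14), and their part was not tested. TV Ibu (+) had mitotic and replication medians of 0.00 and 0.03 by CPM. Its medians on deposited TPM were -0.35 and -0.41 (all genes -0.46). Tyms, at 2.44 CPM against 1.07 CPM in Non, was its only gene 2-fold higher (background 0.94%), and 0 were lower (background 0.669%). Tyms had 60 to 111 counts in these 2 libraries and stood at 0.58 on deposited TPM.

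Mki67 was lower than in Non in the FV and RP libraries. Its log2 difference from Non was -1.18 in FV Ibu (+), -1.08 in FV Ibu (-), -0.86 in RP Ibu (+) and -0.92 in RP Ibu (-), and on deposited TPM it was -0.77, -0.95, -1.09 and -0.67 in the same order. Mki67 was the only gene of the 26 at least 2-fold lower in FV Ibu (+), against 1.07% of all genes, and in FV Ibu (-), against 3.02%. In TV it was at -0.21 in TV Ibu (+) and 0.28 in TV Ibu (-) by CPM, where deposited TPM gave -0.67 and -0.90. By TPM, Non at 9.37 was thus above all 6 collected libraries, which ranged from 4.35 to 5.87. The median log2 difference from Non by CPM was -0.27 for mitotic and -0.03 for replication genes in FV Ibu (+) (all genes 0.04). In FV Ibu (-) these medians were -0.42 and 0.00 (all genes 0.01). On deposited TPM they were 0.12 and 0.35 in FV Ibu (+) (all genes 0.43), and -0.23 and 0.11 in FV Ibu (-) (all genes 0.13). No cell cycle gene at 1 CPM or more was at least 2-fold higher in FV Ibu (+) (background 5.7%) or FV Ibu (-) (background 6.43%). Aurkb came closest, with 2.54 CPM in FV Ibu (-) against 1.25 CPM in Non, a log2 difference just under 1.00 with the prior count and 1.03 on deposited TPM, where it passed 2-fold.

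In RP Ibu (+), Cenpf, Kif11 and Birc5 were at least 2-fold lower than in Non, at log2 differences of -1.33, -1.38 and -1.08, against 1.05% of all genes. In RP Ibu (-), Cenpf and Kif11 were, at -1.31 and -1.29, against 0.746% of all genes. Cenpf had 59 and 92 counts in RP Ibu (+) and RP Ibu (-) and 166 in Non, and Kif11 had 48 and 79 against 141, so each rests on few counts. On deposited TPM Cenpf and Kif11 stood at -0.71 and -0.86 in RP Ibu (-), short of 2-fold, and Cenpf at -0.94, Kif11 at -1.22 and Birc5 at -1.45 in RP Ibu (+). No cell cycle gene was 2-fold higher in RP Ibu (+) (background 0.534%) or RP Ibu (-) (background 0.661%). Mitotic medians were -0.30 and -0.28 and replication medians -0.04 and 0.07 in RP Ibu (+) and RP Ibu (-). On deposited TPM, in the same order, they were -0.49 and -0.07 and -0.27 and 0.27 (all genes -0.23 and 0.21). Of the 6 genes below 1 CPM, Ccnb1 and Bub1 were at least 2-fold lower in RP Ibu (+), Cdk1 in RP Ibu (-), while Bub1 was higher in TV Ibu (-) and FV Ibu (+).

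**Figure D4:**
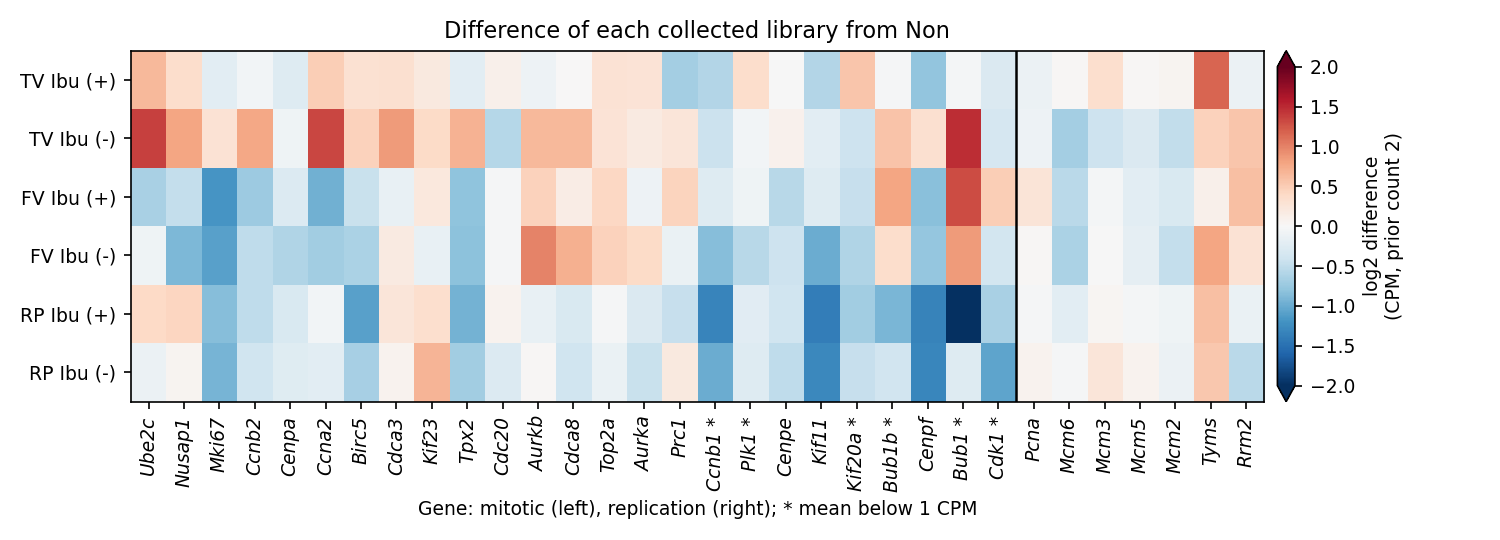
Log2 difference of each collected library from Non (CPM with a prior count of 2) for the 25 mitotic and 7 replication genes, with colours limited to -2 and 2 and asterisks for genes below 1 CPM. Ube2c and Ccna2 are highest in TV Ibu (-), at 1.36 and 1.33, and Mki67 is below 0 in the FV and RP libraries.

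For collection as a whole, Ibu (-) libraries of the 3 routes were set against Non in a fit of all 7 libraries, in which Non was fitted exactly. With edgeR's quasi-likelihood test 0 of 26 cell cycle genes passed an adjusted p of 0.05, where 1 of 11804 genes did (0.00847%), the predicted gene Gm38495. Mki67 had the smallest p of the 26, at a log2 fold of -0.57 (standard error 0.22, adjusted p 0.633), and was the only one at an unadjusted p under 0.05, against 7.6% of all genes. It lost that p with DESeq2 and without FV Ibu (-) or RP Ibu (+). DESeq2 and limma-voom called 0. The median was -0.01 over mitotic genes (9 of 19 above 0) and -0.04 over replication genes (2 of 7 above 0). Ube2c stood at 0.41 (0.37) and Kif11 at -0.83 (0.41), neither with an unadjusted p under 0.05.

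Between FV and RP, 0 of 26 cell cycle genes passed with edgeR's quasi-likelihood test, where 13 of 11774 genes did (0.11%). Those 13 were Saa3, Chil3, Vcan, Emp1, Ms4a8a, Gatm, Asprv1, Shtn1, Plet1, Emilin1, Atrnl1 and Ms4a4a, higher in FV, and Gm8909, lower. At an unadjusted p under 0.05, the mitotic kinase Aurkb was higher in FV at a log2 fold of 0.81 (standard error 0.31, adjusted p 0.179), against 16.2% of all genes. Nusap1 at -0.93 (0.24, adjusted p 0.110) and Ccna2 at -0.72 (0.26, adjusted p 0.164) were lower, against 8.5% of all genes. Aurkb had 1.73 and 2.54 CPM in FV Ibu (+) and FV Ibu (-), against 1.12 and 1.28 in RP Ibu (+) and RP Ibu (-), and 1.17 and 1.99 in TV Ibu (+) and TV Ibu (-). DESeq2 called Nusap1, as did edgeR without FV Ibu (+), at adjusted p of 0.0263 and 0.0485, where 1076 of 11774 and 344 of 11638 genes were called in all, and limma-voom called 0 of the 26. In this comparison 13 of 19 young erythroid genes had a log2 fold below 0 and 15 of 15 platelet markers one above 0 (median 1.59). B cell markers were lower in 12 of 12, all at an unadjusted p under 0.05 (median -1.29), neutrophil precursor genes had a median of 3.04 (5 of 8 above 0), and the part of these lists was not tested.

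Ibuprofen was tested over the 3 routes with route as a term. No cell cycle gene passed (0 of 26; 0% of 11774 genes) with edgeR's quasi-likelihood test, and 0 of 26 had an unadjusted p under 0.05, against 10.2% of all genes. DESeq2 and limma-voom also called 0. Mitotic genes had a median log2 difference of -0.18 (5 of 19 above 0) and replication genes 0.06 (7 of 7 above 0), against 0.01 over all genes. The smallest p was that of Ccnb2 at -0.39 (standard error 0.19, adjusted p 0.536), and among replication genes that of the helicase subunit Mcm2 at 0.25 (0.16, adjusted p 0.614). Whether ibuprofen acted differently by route could not be tested, since that difference is the residual of the fit.

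Within routes, TV Ibu (+) and TV Ibu (-) were furthest apart. The mitotic median was -0.50 in TV, -0.07 in FV and 0.07 in RP for Ibu (+) against Ibu (-), and the replication median was 0.55, 0.10 and -0.09. By deposited TPM the TV medians were 0.23 and 1.04 with an all-gene median of 0.70. In TV, mitotic genes thus lay below and replication genes above the all-gene median on both scales. The FV medians by TPM were 0.12 and 0.43 (all genes 0.31) and the RP medians -0.27 and -0.53 (all genes -0.44). The mitotic sign depends on the scale in each route. Cenpf, at -1.11 in TV (1.69 CPM in TV Ibu (+) against 3.70 in TV Ibu (-)), was the only gene at least 2-fold lower (-0.21 on deposited TPM), against 6.35% of all genes, and 0 were higher, against 3.47%. In FV 0 of 26 were 2-fold higher or lower, against 1.5% and 1.6% of all genes, and in RP 0 of 26, against 0.906% and 1.49%. In TV, 19 of 19 young erythroid genes were also lower with ibuprofen (median -0.84), as were 15 of 15 platelet markers (median -1.40), and 12 of 12 T cell markers were higher (median 1.29); their part was not tested.

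The other mitotic genes at 1 CPM or more did not share one order of libraries. Top2a, which untangles DNA, stayed between 2.63 and 4.00 CPM and had its highest values in FV, while Kif23, a kinesin of the central spindle, spanned 4.04 to 7.16 CPM with its highest value in RP Ibu (-). Cenpa spanned 4.70 to 7.11 CPM, Cdc20, an activator of the anaphase-promoting complex, 1.19 to 1.91, and Aurka 0.74 to 1.34. For these 5 genes no route lay above Non in both of its libraries and also above both other routes, apart from Top2a in FV. Cdca8, a partner of Birc5 and Aurkb, had 1.06 and 1.68 CPM in TV Ibu (+) and TV Ibu (-), against 1.18 and 1.75 in FV Ibu (+) and FV Ibu (-), 0.84 and 0.79 in RP Ibu (+) and RP Ibu (-), and 1.05 in Non. Its FV values overlapped those of TV, and RP was lowest.

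By CPM, the highest library was a median of 1.63 times the lowest for replication genes, against 2.27 for 19 mitotic genes. Over the 11779 genes at 1 CPM or more that every library held, this median was 1.64. Single genes overlapped, as Rrm2 and Tyms each spanned 2.28 times while the mitotic genes Top2a and Cenpa spanned 1.52 and 1.51. Such ratios also widen with counting error at low counts. Rrm2 had 39 to 93 and Tyms 49 to 124 counts in a library, against 636 to 1720 for Pcna. The part of depth was not tested. The helicase subunits Mcm2, Mcm3, Mcm5 and Mcm6 were each lowest in TV Ibu (-), a library that was lowest for 30.3% of all genes. Mcm6 (gene ID 17219; chromosome 1, 128331575 to 128359705) had 20.4 and 12.5 CPM in TV Ibu (+) and TV Ibu (-), 13.8 and 12.9 in FV Ibu (+) and FV Ibu (-), 17.2 and 19.7 in RP Ibu (+) and RP Ibu (-), and 20.0 in Non. Mcm3 had 11.8 and 7.06 CPM in the TV libraries with and without ibuprofen, 9.18 and 9.38 in FV, 11.1 in RP Ibu (-) and 9.68 in RP Ibu (+), and 9.40 in Non. For both genes FV lay below RP, and the TV values lay on either side of FV. Mcm2 spanned 8.77 to 12.9 CPM, Mcm5 8.95 to 11.4, Tyms 1.07 to 2.44 and Rrm2 0.63 to 1.42. Pcna stayed between 19.4 and 24.9 CPM in all 7 libraries. TV Ibu (-) was highest for 11 of the 25 mitotic genes, 10 of them among the 19 at 1 CPM or more, where it was highest for 17.6% of all genes.

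Other cell cycle genes behaved in part like these. Of 57 further mitotic genes, 28 reached 1 CPM, of which 5 were higher and 1 lower in TV than in RP at an unadjusted p under 0.05 (median 0.42), and 6 higher and 0 lower in TV than in FV (median 0.29). All genes stood at 9.05% higher and 4.02% lower for TV against RP, and at 4.66% and 6.1% for TV against FV. None passed the adjusted test. The phosphatase Cdc25b, which activates Cdk1, had 257 and 399 CPM in TV Ibu (+) and TV Ibu (-), against 150 and 144 in FV Ibu (+) and FV Ibu (-), 252 and 173 in RP Ibu (+) and RP Ibu (-), and 227 in Non. Pttg1 (securin) had 94.8 and 161 CPM in TV Ibu (+) and TV Ibu (-), against 41.3 and 60.5 in FV Ibu (+) and FV Ibu (-), 74.4 and 74.7 in RP Ibu (+) and RP Ibu (-), and 69.7 in Non. Both were highest in TV Ibu (-), whereas the condensin subunit Smc4 was lowest there, at 46.3 CPM. Of 45 further replication genes, 36 reached 1 CPM, of which 1 was higher and 0 lower in TV than in RP at an unadjusted p under 0.05 (median -0.25), and 0 differed for TV against FV (median -0.03). Dnmt1, the maintenance DNA methyltransferase, spanned 36.8 to 45.8 CPM, the single-strand binding protein Rpa1 30.3 to 48.8, and Mcm4 13.6 to 20.6. With ibuprofen 33 of these 36 genes had a log2 difference above 0 (median 0.18, 3 at an unadjusted p under 0.05), against 6134 of 11774 genes above 0 and 563 of them higher at that p. T cell markers were above 0 in 12 of 12 (10 at that p, median 0.74) and B cell markers in 12 of 12 (5 at that p, median 0.43), and their part was not tested.

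Of 12 genes for cyclins and kinases of the first gap phase and their E2F partners, 11 reached 1 CPM, with 2 higher and 1 lower in TV than in RP at an unadjusted p under 0.05 (all genes 9.05% and 4.02%) and 1 higher than in FV (all genes 4.66%). E2f2 had 268 and 410 CPM in TV Ibu (+) and TV Ibu (-), against 160 and 144 in FV Ibu (+) and FV Ibu (-), 284 and 205 in RP Ibu (+) and RP Ibu (-), and 255 in Non. Ccnd3 (cyclin D3) had 110 and 236 CPM in TV Ibu (+) and TV Ibu (-), 184 and 175 in FV Ibu (+) and FV Ibu (-), 84.5 and 98.0 in RP Ibu (+) and RP Ibu (-), and 93.9 in Non, so it was high in FV as well. Ccnd2 (cyclin D2) was lowest in FV Ibu (-) and TV Ibu (-), at 37.7 and 40.8 CPM, and highest in Non, at 75.9. Of 26 inhibitors of division and quiescence genes, 22 reached 1 CPM. At an unadjusted p under 0.05, 1 was higher and 0 lower in TV than in RP (all genes 9.05% and 4.02%). For TV against FV 0 differed (all genes 4.66% higher and 6.1% lower). With 22 genes, such counts lie near these shares. The antiproliferative genes Btg1 and Btg2 and the quiescence factor Klf2 spanned 323 to 468, 90.1 to 122 and 121 to 198 CPM over the 7 libraries.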

How the data were processed

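Total RNA of PBMCs was purified with an RNeasy kit and made into stranded mRNA libraries, per the labels' protocols. Trimmomatic 0.38, HISAT2 2.1.0 and build mm10 are named in the submitters' processing notes, and the sources used here do not name the counting program or its strand setting. The deposited read counts are whole numbers per gene that the authors did not normalize. The deposited TPM values, scaled by the authors for transcript length, served for levels and as an alternative scale, and the deposited FPKM values were not used. Columns were matched to libraries by the library name in the labels.

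Tests were run with edgeR 4.0.16 in R 4.3.3, with DESeq2 1.42.0 and limma 3.58.1 as alternatives. The p-values come from edgeR's quasi-likelihood test (glmQLFit, glmQLFTest) with TMM scaling, on genes whose mean reached 1 CPM, adjusted by Benjamini-Hochberg over all genes tested, at a threshold of 0.05. Ibuprofen and routes were fitted as additive terms in the 6 collected libraries with 2 residual degrees of freedom, so p-values reflect the scatter among single libraries and that scatter may be technical. Collection was tested with all 7. Standard errors were derived from the log2 fold and F. Pairs used a prior count of 2 and TPM a pseudocount of 0.1. No 2 of the 7 libraries agreed within sampling noise (lowest chi-square per degree of freedom 28.4). The tests for ibuprofen, collection and TV against RP were also run on simulated counts with additive changes and a set spread. Real single libraries need not follow that setting, so the simulation does not give the error rate of the tests here. The globin scale, the route means on other scales and the counts at an unadjusted p were added after seeing the data. The genes and lists were chosen with earlier results of these data known. Genes named outside the 32 are the 3 with the highest mean CPM of each cell cycle list, the genes that passed a test and, chosen after their values were seen, Ubb, Gm1821 and Sphk1.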

Additional observations from a re-analysis of the deposited data

Results flagged for a closer look

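The ibuprofen difference (log2 CPM, Ibu (+) against Ibu (-)) had opposite signs in different routes for 3 of the 26 genes at 1 CPM or more, with at least 0.5 on either side of 0. Each route holds a single pair of libraries, so the difference between routes was not tested. Ube2c stood at -0.72 in TV, -0.55 in FV and 0.51 in RP. By deposited TPM the same values were 0.01, -0.27 and 0.07, so the opposite signs depend on the scale. Adult globin took 64.6% and 70.9% of counts in TV Ibu (+) and TV Ibu (-), 46.3% and 53.4% in FV Ibu (+) and FV Ibu (-), and 62.4% and 54.0% in RP Ibu (+) and RP Ibu (-), and its part was not tested. Prc1, which bundles microtubules in the spindle midzone, stood at -0.92 in TV, 0.58 in FV and -0.66 in RP, on 33 to 106 counts in a library, and at -0.14, 0.76 and -0.92 by deposited TPM. Tyms stood at 0.69 in TV, -0.69 in FV and 0.059 in RP, on 49 to 124 counts in the collected libraries. By deposited TPM it stood at 1.04, -0.35 and -0.35, with the RP sign turned. No group had enough libraries for a check of single outlying values.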

How the results depend on the processing

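No paired analysis was possible because the labels carry no replicate numbers that could pair libraries beyond route, which the ibuprofen fit already holds as a term. Of the 26 cell cycle genes, edgeR called 0 in every comparison, and DESeq2 called 1 for FV against RP, 1 for TV against RP and 5 for TV against FV. Leaving out a library moved these counts to between 0 and 1 for FV against RP, 0 and 4 for TV against RP, and 0 and 2 for TV against FV, and the library left alone in its route was then assumed to vary like the others. The number at an unadjusted p under 0.05 for TV against RP was 8, was 4 with a minimum of 5 CPM (12 genes tested) and lay between 2 and 11 when a library was left out. For ibuprofen and for collection the called count stayed at 0 under every alternative run. Over all genes DESeq2 called 110 for ibuprofen, 17 for collection, 1076 for FV against RP, 189 for TV against RP and 318 for TV against FV, and limma-voom called 2, 1, 188, 0 and 7.

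Counts of genes at least 2-fold apart in single pairs moved with the scale. Deposited TPM gave 8, all lower, for TV Ibu (-) against Non, where CPM gave 2 higher. It gave 5, all higher, for TV Ibu (+) against TV Ibu (-), where CPM gave 1 lower. On that scale the all-gene medians of these pairs were -1.17 and 0.70. Deposited TPM gave 1 lower for RP Ibu (+) against RP Ibu (-), and 0 for TV Ibu (+), FV Ibu (+) and RP Ibu (-) against Non. For FV Ibu (-) against Non it gave 1 higher, where CPM gave 1 lower. Scaling per adult globin count gave 3, 13 and 5, all lower, for TV Ibu (+), TV Ibu (-) and RP Ibu (+) against Non. The all-gene medians of these pairs on that scale were -0.53, -1.35 and -0.27. The same scaling gave 3, all higher, for FV Ibu (+), and 1 higher for FV Ibu (-), where CPM gave 1 lower. Here the all-gene medians were 0.60 and 0.20. RP Ibu (-) stayed at 2 lower, as by CPM, with an all-gene median of 0.26. The direction thus turned against CPM for the TV and FV libraries and not for the RP libraries. For ibuprofen, scaling per adult globin count gave 6 higher in TV, 1 higher in FV and 1 lower in RP. The all-gene medians were 0.80, 0.41 and -0.52 in the same order. The share of all genes at least 2-fold apart on the TPM and globin scales is not given here. Whether these counts are particular to cell cycle genes therefore cannot be told. A minimum of 10 CPM gave 0 for TV Ibu (+), RP Ibu (+) and RP Ibu (-) against Non and 0 for ibuprofen in TV, since fewer genes remain. For FV Ibu (+) against Non the count was 2 with DESeq2 size factors and 2 with TMM computed without erythroid genes, and for FV Ibu (-) against Non it was 2 with that TMM (1 higher) and 3 with a prior count of 0.5 (1 higher). Apart from the effect of a minimum, the cause was not tested. Genes with under 100 counts, such as Cdk1 and Bub1, are limited by depth.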
